A study of Mus musculus with 115 samples.

Results

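Highly proliferative prostate tumors of TRAMP mice were compared by the stromal RNA they contained. The members were 35 RNA-seq libraries chosen by a measured Mki67 level of at least 30 TPM, and the 80 other libraries of the series were below it. TPM is a transcript level per length, scaled to the same total in each library. The 35 were ranked by measured Col1a1 TPM, and the 11 highest are called Col1a1-high, the 11 lowest Col1a1-low and the remaining 13 middle. All mice were male (TRAMP x WSB/EiJ) F2 offspring, each with its own mixture of parental genomes, and all were positive for the transgene. They were kept to a common endpoint age unless euthanized earlier. The transgene expresses SV40 T antigen from a minimal probasin promoter, which is active in prostate epithelium. RNA came from bulk tumor tissue, or from the ventral prostate where the prostate was small. The labels give a single group and name no batch, and the age and tumor weight of single mice were not used here. The paper describes RNA-seq of fewer prostates than the series has libraries. The last block of samples also comes last among the columns of levels, although the orders otherwise differ. It holds W4162, W4182, W992, W462, W4180, W4202 and W1103 of the Col1a1-low side but only W1065 of the Col1a1-high side. Whether this block was a batch, and its part in the differences, was not tested.

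Mki67, a protein of dividing cells, was at 31.99 TPM in the lowest member and 25.7 TPM in the highest library left out. Col1a1, the α1 chain of type I collagen, was at 43.25 to 308 TPM in the Col1a1-high and 0.23 to 12.1 TPM in the Col1a1-low libraries. The nearest middle libraries were at 38.1 and 12.5 TPM, so no gap marked either boundary. Because the libraries were selected on these values, differences between the sides are described without a test. They are differences of mean log2(TPM + 1), Col1a1-high minus Col1a1-low, ± SE with n = 11 and 11.

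The Col1a1-high libraries were not uniform. The 4 with the most Col1a1, W1790, W1118, W1050 and W1915, had 0.15 to 2.55 TPM of Chga (chromogranin A, of neuroendocrine granules), while the other 31 proliferative libraries had 21.1 to 479 TPM. Krt8, a luminal keratin, was at 369 to 630.5 TPM in the 4 and 0.14 to 287 TPM in the 31. The neural adhesion gene Ncam1 was at 4.02 to 12.4 TPM in the 4 and 16.2 to 128 TPM in the 31. Results are therefore also given for the 31 libraries with at least 5 TPM of Chga, ranked again by Col1a1 into 10 high and 10 low. This ranking was added after the values were seen, and it shares libraries with the first.

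The read depth of each library cannot be read from TPM. Between 13067 and 15416 genes reached 1 TPM in the Col1a1-high and Col1a1-low libraries. The noncoding RNAs Rn7sk, Rn7s1 and Rn7s2 held 42.82% to 65.64% of the TPM in the Col1a1-high and 52.15% to 67.02% in the Col1a1-low libraries. Over 14926 autosomal genes that averaged 1 TPM or more in the 35 libraries, the median difference was 0.18, and 0.02 after median-of-ratios scaling. Of these genes, 1995 (13.4%) were higher by at least 1 log2 unit in the Col1a1-high libraries and 708 (4.74%) were lower. After median-of-ratios scaling these counts were 1551 and 857. In the ranking of 31 they were 819 (5.49%) and 96 (0.643%). The sides did not overlap for 360 genes (2.41%) that were higher and 16 (0.107%) that were lower, and in the ranking of 31 for 317 (2.12%) that were higher.

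A carcinoma consists of tumor epithelium and of a stroma of fibroblasts, smooth muscle, vessels and leukocytes in an extracellular matrix. Fibroblasts secrete collagens of types I, III and V, which are folded with the chaperone Serpinh1 and cross-linked by lysyl oxidases such as Lox. TRAMP mice are known for poorly differentiated tumors with neuroendocrine features beside glandular lesions. In bulk RNA, fewer cells of a type and less RNA per cell cannot be told apart.

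The promoter windows of 3 genes are shown because Col1a2 and Col3a1 encode collagens of the same fibers and H2-Aa, an antigen-presenting molecule, was higher with them. They are from RefSeq on GRCm38.p6 and run from 250 bases before the annotated start to 50 after it, 5′ to 3′ on the strand of the gene. Capitals mark the letters CCAAT and the letters TATAAA, each searched on both strands. Col1a2 is at chr6:4505368-4505667 on the plus strand, Col3a1 at chr1:45311288-45311587 on the plus strand and H2-Aa at chr17:34287774-34288073 on the minus strand. The Col1a2 window lies inside the gene span given below, which is from GENCODE M21 and starts before the RefSeq window.
Col1a2: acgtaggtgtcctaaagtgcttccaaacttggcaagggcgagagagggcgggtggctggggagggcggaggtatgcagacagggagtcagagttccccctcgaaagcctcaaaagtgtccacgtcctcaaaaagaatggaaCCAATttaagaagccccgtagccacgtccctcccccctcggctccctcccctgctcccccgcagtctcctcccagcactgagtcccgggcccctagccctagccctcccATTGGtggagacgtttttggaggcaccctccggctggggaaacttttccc
Col3a1: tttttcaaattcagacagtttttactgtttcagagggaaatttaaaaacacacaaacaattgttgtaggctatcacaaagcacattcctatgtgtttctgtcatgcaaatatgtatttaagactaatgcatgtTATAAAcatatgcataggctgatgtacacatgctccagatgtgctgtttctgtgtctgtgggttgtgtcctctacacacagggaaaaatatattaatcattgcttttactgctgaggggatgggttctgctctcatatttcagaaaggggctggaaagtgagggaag
H2-Aa: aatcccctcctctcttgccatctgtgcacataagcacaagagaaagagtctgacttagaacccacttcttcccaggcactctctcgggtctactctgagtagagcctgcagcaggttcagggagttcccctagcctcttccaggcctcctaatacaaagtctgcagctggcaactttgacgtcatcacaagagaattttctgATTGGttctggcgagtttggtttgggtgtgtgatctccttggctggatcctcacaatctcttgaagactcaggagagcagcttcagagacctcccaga
Col1a2 held CCAAT at bases 142 to 146 of its window and, on the other strand, at bases 251 to 255. H2-Aa held CCAAT on the other strand at bases 203 to 207, and Col3a1 held TATAAA at bases 134 to 139, with no overlap between motifs. CCAAT in either direction was in 37.4% and TATAAA in 13.6% of 32851 promoter windows of this length, so these matches are a description only. Of 472 listed genes, 328 had a promoter in the table.

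Fibrillar collagens other than Col1a1, which ranked the libraries, were higher with it. Col3a1 (ENSMUSG00000026043, chromosome 1, 45311538 to 45349706), the type III chain, had 133, 312 and 878 TPM as its lowest, median and highest level in the Col1a1-high libraries. In the Col1a1-low libraries these levels were 1.1, 11.3 and 40.3 TPM. The sides did not overlap, the ratio of medians was 27.6 and the difference was 4.69 ± 0.51. The middle libraries, at 29.4 to 152 TPM, reached into both.

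Col1a2 (ENSMUSG00000029661, chromosome 6, 4504814 to 4541544), the chain that pairs with Col1a1 in type I collagen, had 77, 146 and 415 TPM against 0.6, 7.4 and 21 TPM, again without overlap. Its difference was 4.31 ± 0.46, beside 4.44 ± 0.48 for Col1a1, which the ranking fixes. The TPM ratio of Col1a1 to Col1a2 was 0.435 to 0.771 in the Col1a1-high and 0.236 to 0.634 in the Col1a1-low libraries, with medians of 0.576 and 0.404. The ratio of Col3a1 to Col1a1 was 1.96 to 6.29 and 2.51 to 5.94, with medians of 3.08 and 3.49. Both ratios contain the ranking gene, and their ranges overlapped between the sides while the levels of these chains did not.

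Type V chains, which take part in fibril assembly, were separate as well. Col5a2 was 3.81 ± 0.34 higher, Col5a1 2.72 ± 0.32 and Col5a3 1.67 ± 0.19, each without overlap. Col11a1, a type XI chain best known from cartilage, was at 0.16 to 4.13 TPM and 0.43 to 4.99 TPM and overlapped. Without Col1a1, 10 fibrillar collagens were listed and 6 passed the filter on low values, of which 5 were at least 1 unit higher and did not overlap. Their median was 3.27, and 2.78 in the ranking of 31, while the median over the 10 listed was 1.04. Here and in the lists below, a gene can pass the filter through the side where it is high, and unless said otherwise medians cover the genes that passed. Of all genes tested, 13.4% were at least 1 unit higher and 4.74% lower, and in the ranking of 31 5.49% and 0.643%. Without overlap 2.41% were higher, and 2.12% in the ranking of 31. The count of each list stands beside these shares.

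**Figure D1:**
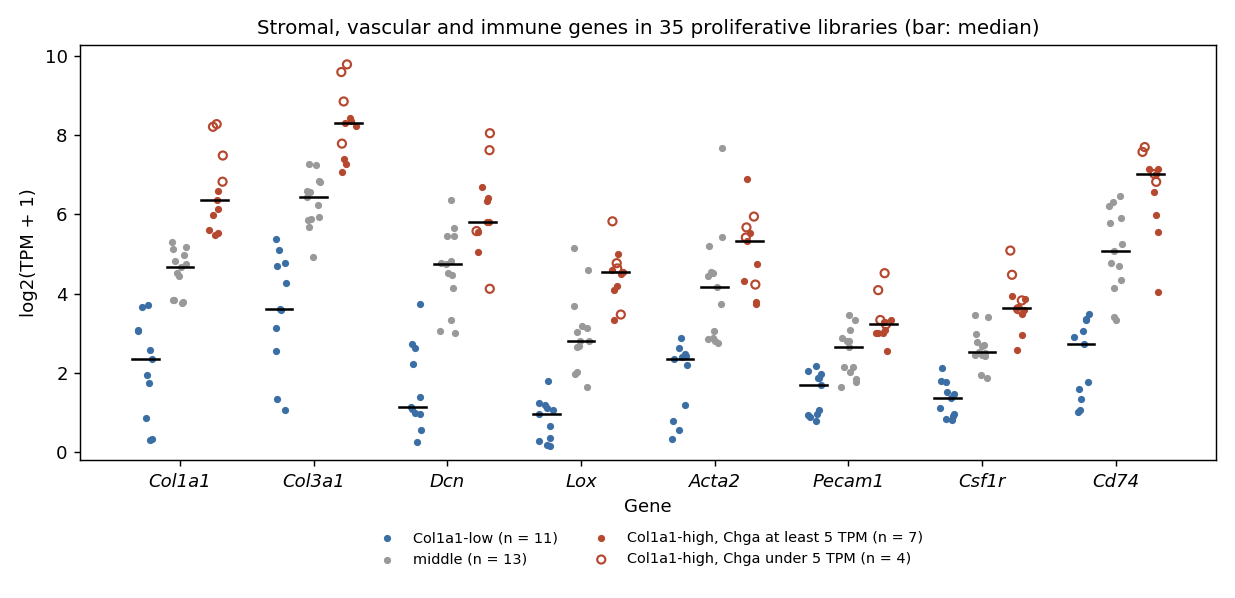
Levels of 8 stromal and immune genes in log2(TPM + 1) in the 11 Col1a1-low, 13 middle and 11 Col1a1-high libraries, with 1 point a library and a bar at each median. Open points are the 4 Col1a1-high libraries under 5 TPM of Chga, and the Col1a1-high and Col1a1-low points do not overlap for any of the genes shown.

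Other collagens were higher with the fibrillar ones. Col12a1 and Col14a1, which lie on the fibril surface, were 2.97 ± 0.37 and 2.83 ± 0.33 higher without overlap. Type VI chains, which form microfibrils, were 2.52 ± 0.33 (Col6a1), 2.39 ± 0.29 (Col6a2) and 2.74 ± 0.39 (Col6a3) higher without overlap. Col8a1 had the largest difference of the list, 3.45 ± 0.53, but overlapped, at 6.58 to 84 against 0.01 to 21.8 TPM. Col7a1 and Col8a2 had the smallest differences, 0.22 ± 0.31 and 0.16 ± 0.40. Of 14 listed, 10 passed the filter and 8 were at least 1 unit higher, with a median of 2.45, and 2.02 in the ranking of 31.

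Basement membranes underlie epithelium and surround vessels and muscle. Col4a1, a chain of their collagen, was at 25.9, 47.3 and 143 TPM in the Col1a1-high and 2.43, 11 and 23.4 TPM in the Col1a1-low libraries. It did not overlap and differed by 2.50 ± 0.42. Perlecan (Hspg2), the laminin chain Lama4 and Col15a1 did not overlap either, with differences of 2.15 ± 0.29, 1.89 ± 0.32 and 2.35 ± 0.33.

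Lamb3, a laminin chain of epithelium, depended on the 4 Chga-low libraries. It was 1.73 ± 0.82 higher with overlap, and 0.28 in the ranking of 31. Lamb2, the largest difference of the list, was 2.62 ± 0.44 higher with overlap, and agrin (Agrn) differed by 0.08 ± 0.32. Of 20 listed, 16 passed the filter and 15 were at least 1 unit higher, with a median of 1.94. In the ranking of 31 the count was 9 and the median 1.25.

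Among matrix glycoproteins and proteoglycans, decorin (Dcn), which binds collagen fibrils, was at 16.4, 55.4 and 263 TPM in the Col1a1-high and 0.2, 1.2 and 12.4 TPM in the Col1a1-low libraries. The sides did not overlap and differed by 4.48 ± 0.47. The collagen-binding Sparc, periostin (Postn) and thrombospondin 2 (Thbs2) were 3.92 ± 0.44, 3.68 ± 0.49 and 3.61 ± 0.49 higher without overlap. Fibronectin (Fn1) was at 30.6 to 289 against 3.51 to 18 TPM, a difference of 3.28 ± 0.39.

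Elastic fiber genes differed among themselves. Fibrillin 1 (Fbn1) was 2.47 ± 0.26 higher without overlap, elastin (Eln) overlapped at 0.38 ± 0.35, and Mfap2 was at -0.46 ± 0.21. Lum, another fibril-binding proteoglycan, was 3.35 ± 0.48 higher with overlap. Of 33 listed, 29 passed the filter, 20 were at least 1 unit higher, 12 did not overlap and 0 were at least 1 unit lower. The median was 1.51, and 1.27 in the ranking of 31.

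Collagen must be folded, trimmed and cross-linked. Serpinh1, the collagen chaperone, was at 17.8, 53.1 and 148 TPM in the Col1a1-high and 0.29, 3.25 and 7.41 TPM in the Col1a1-low libraries, a difference of 4.01 ± 0.44. Lysyl oxidase (Lox) was at 9.11, 22.2 and 55.5 against 0.12, 0.95 and 2.46 TPM, a difference of 3.63 ± 0.26. Neither overlapped, nor did Pcolce, an enhancer of procollagen trimming, at 2.83 ± 0.25, or Loxl1 at 2.35 ± 0.17.

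Other genes of the list differed less. Plod2, a lysyl hydroxylase, was at -0.28 ± 0.27 and Sec23a, a coat protein of export vesicles, at -0.14 ± 0.18. P4ha1 and P4ha2, prolyl hydroxylases of procollagen, were at 0.43 ± 0.34 and 0.10 ± 0.33. Of 24 listed processing genes, 19 passed the filter and 12 were at least 1 unit higher. The median was 1.32, and 0.94 in the ranking of 31.

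Proteases that remodel matrix, and their inhibitors, were higher in part. Plat (a plasminogen activator) and the collagen-cutting cathepsin K (Ctsk) were 3.48 ± 0.60 and 2.51 ± 0.22 higher without overlap. Mmp14, a membrane-bound collagenase, was 2.87 ± 0.57 higher with overlap, at 5.2 to 109.9 against 0.82 to 20.9 TPM. Reck, a membrane inhibitor of these proteases, and Mmp16 were at -0.28 ± 0.08 and -0.22 ± 0.41. Of 25 listed, 21 passed the filter and 12 were at least 1 unit higher, with a median of 1.38, and 0.93 in the ranking of 31.

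Fibroblast markers did not move as 1 block. Ly6a, which encodes Sca-1, was at 9.05, 40.5 and 211 TPM in the Col1a1-high and 0.24, 1.27 and 4.02 TPM in the Col1a1-low libraries, without overlap and 4.33 ± 0.53 higher. Pdgfrb, a receptor of fibroblasts and pericytes, Thy1 and the mesenchymal factor Prrx1 were 2.05 ± 0.31, 1.88 ± 0.26 and 1.74 ± 0.24 higher without overlap. Pdgfra, a receptor often used to mark fibroblasts, was at 2.65, 16.5 and 34.5 TPM against 0.35, 9.45 and 42.3 TPM. It overlapped widely, with a difference of 0.48 ± 0.56. Fap, a protease of activated fibroblasts, reached 31.4 TPM in a Col1a1-low library and differed by 0.79 ± 0.48. Of 19 listed, 12 passed the filter and 8 were at least 1 unit higher, with a median of 1.66, and 1.12 in the ranking of 31. Over those listed the median was 1.00.

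TGF-β stimulates matrix production in fibroblasts. Of its ligands Tgfb1 was 1.28 ± 0.20 higher without overlap, while Tgfb2 was at -0.11 ± 0.46. The receptor Tgfbr2 was 2.55 ± 0.25 higher without overlap, while Tgfbr1 was at -0.08 ± 0.12. The transducers Smad2 and Smad4 were at 0.20 ± 0.16 and 0.21 ± 0.15, near the median of all genes.

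Among its targets, Ccn2 (connective tissue growth factor) was at 11.1, 18.2 and 69.6 TPM against 0.58, 2.52 and 4.28 TPM and differed by 2.87 ± 0.32. Tgfbi, a secreted matrix protein, was 2.67 ± 0.37 higher, and both were without overlap. The latency protein Ltbp2 was 2.89 ± 0.42 higher, whereas Ltbp1, another of that family, was at -0.68 ± 0.21. Of 23 listed, 21 passed the filter and 11 were at least 1 unit higher, with a median of 1.26. In the ranking of 31 the count was 6 and the median 0.44.

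Secreted growth factors and antagonists were headed by Sfrp1, Sfrp4 and Sfrp2, which bind Wnt ligands. They were 2.38 ± 0.28, 2.15 ± 0.40 and 2.12 ± 0.33 higher, Sfrp1 without overlap. Igf1, a growth factor, was 2.08 ± 0.57 higher, and 1.15 in the ranking of 31. The hedgehog receptor Ptch1 was at -0.29 ± 0.20. Of 24 listed, 14 passed the filter and 9 were at least 1 unit higher, against 4 in the ranking of 31, and the medians were 1.59 and 0.64. Over those listed the median was 0.94.

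Contractile genes mark smooth muscle and myofibroblasts. Smooth muscle actin (Acta2) was at 12.4, 39.3 and 118 TPM in the Col1a1-high and 0.26, 4.05 and 6.39 TPM in the Col1a1-low libraries. Transgelin (Tagln) was at 11, 39.9 and 136 against 0.76, 3.29 and 5.3 TPM. Neither overlapped, and the differences were 3.21 ± 0.41 and 3.15 ± 0.39. Myh11, the myosin of mature smooth muscle, was at a low 2.49 TPM in the median Col1a1-high library against 0.48 TPM.

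The summed level of 18 smooth muscle genes was 93.2 to 761 TPM in the Col1a1-high and 35.8 to 80.2 TPM in the Col1a1-low libraries. In the 80 libraries with less Mki67 it ran from 63.4 to 6426 TPM, with a median of 2323 TPM. Of the smooth muscle genes, 14 passed the filter and 10 were at least 1 unit higher, with a median of 1.53, and 1.47 in the ranking of 31.

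Vascular genes were higher by less than the collagens. CD31 (Pecam1), an adhesion molecule of endothelium, was at 4.87, 8.32 and 21.8 TPM in the Col1a1-high and 0.71, 2.24 and 3.48 TPM in the Col1a1-low libraries. It did not overlap and differed by 1.83 ± 0.23. The endothelial genes Emcn, Cdh5 and Cldn5 were 1.83 ± 0.27, 1.68 ± 0.26 and 1.67 ± 0.25 higher without overlap, whereas Kdr, a VEGF receptor, was 0.84 ± 0.22 higher with overlap. Prox1 and Sox18, factors of lymphatic and vascular development, were at 0.06 ± 0.24 and -0.78 ± 0.44. Of 20 listed, 15 passed the filter, 12 were at least 1 unit higher and 8 did not overlap. The median was 1.61, and 1.21 in the ranking of 31. Of 10 pericyte genes 9 passed and 6 were at least 1 unit higher, led by Rgs5 at 1.94 ± 0.52, with a median of 1.26, and 0.98 in the ranking of 31.

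**Figure D2:**
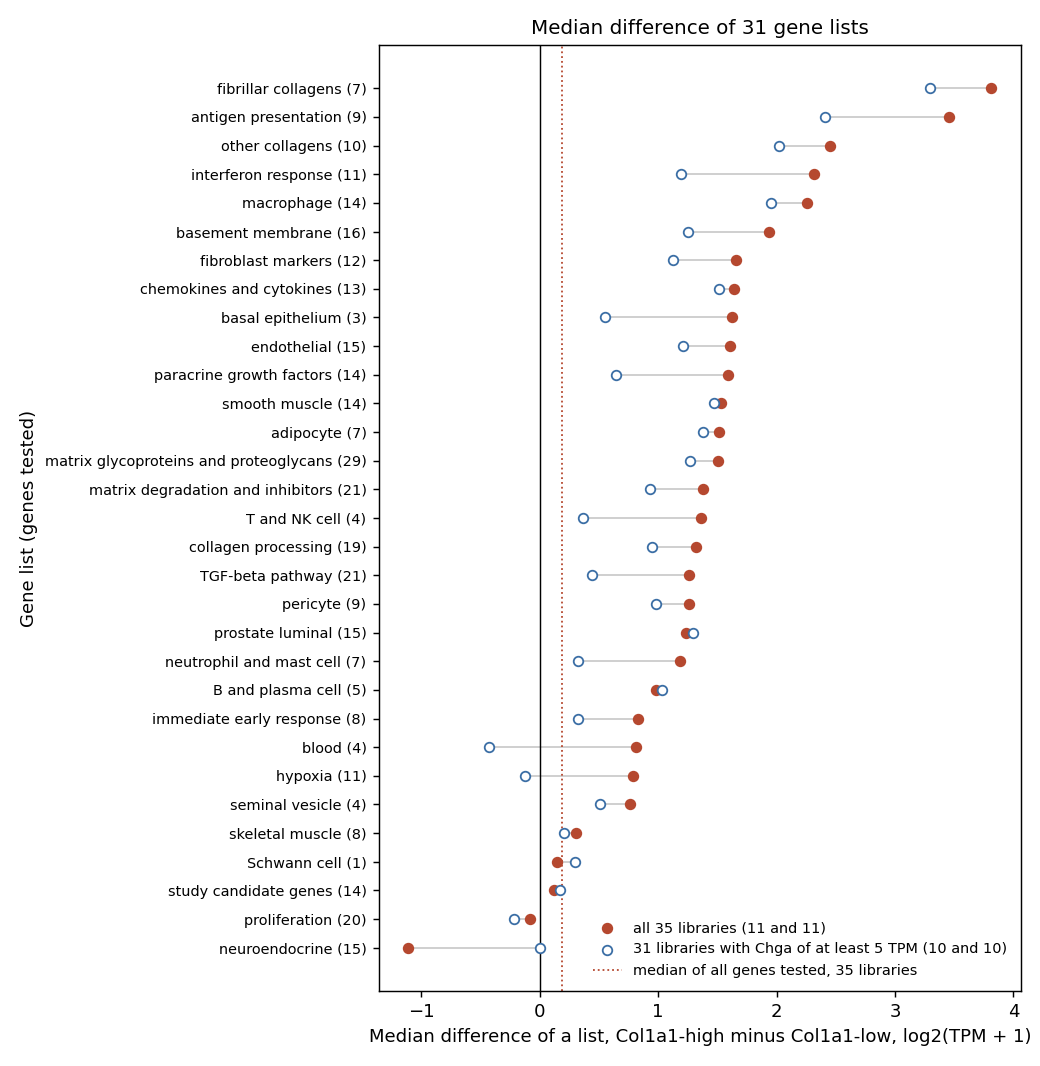
Median difference of each of 31 gene lists in log2(TPM + 1), Col1a1-high minus Col1a1-low, for the 35 libraries and for the 31 with at least 5 TPM of Chga. The median of all genes was 0.18, the fibrillar collagen list, which holds the ranking gene Col1a1, stands at 3.81, and the neuroendocrine list stands at -1.11 and 0.0024.

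Leukocyte genes were higher with the matrix genes. Ptprc (CD45), which leukocytes share, was 2.24 ± 0.27 higher, and 1.97 in the ranking of 31. The macrophage receptor Csf1r was at 4.97, 11.4 and 32.9 TPM in the Col1a1-high and 0.75, 1.57 and 3.32 TPM in the Col1a1-low libraries, without overlap and 2.40 ± 0.24 higher. The complement gene C1qa and lysozyme (Lyz2), products of macrophages, were 3.04 ± 0.36 and 2.84 ± 0.37 higher with overlap. Of 15 listed macrophage genes, 14 passed the filter and 13 were at least 1 unit higher, as were 13 in the ranking of 31. The medians were 2.26 and 1.95.

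Most lymphocyte genes were at low levels, and T and NK cell genes summed highest in the 4 Chga-low libraries. The 18 listed T and NK cell genes summed to 57.3 to 126 TPM there and 3.43 to 35.8 TPM in the other 7 Col1a1-high libraries. In the Col1a1-low libraries they summed to 2.23 to 4.12 TPM. Of these genes 4 passed the filter and 4 were at least 1 unit higher, against 1 in the ranking of 31. The shares of all genes were 13.4% and 5.49%. Of 12 B and plasma cell genes 5 passed the filter. The T cell receptor gene Trbc2 was at 0.12 to 8.47 TPM in the Col1a1-high and 0 to 0.49 TPM in the Col1a1-low libraries, and the T cell marker Cd3e had a median of 0.17 TPM even in the Col1a1-high libraries. Gzma, a cytotoxic protease, differed by 2.26 ± 0.86, but by 0.21 in the ranking of 31. The immunoglobulin gene Ighm was at 0.31 to 25.7 against 0 to 1.94 TPM. Over the listed genes, filtered or not, the median differences were 0.44 for T and NK cells, 0.20 for B and plasma cells and 0.90 for neutrophils and mast cells.

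Chemokines that attract monocytes separated the sides. Ccl2 was at 1.52, 10.9 and 23.2 TPM in the Col1a1-high and 0.06, 0.27 and 0.97 TPM in the Col1a1-low libraries, a difference of 2.76 ± 0.32, and Ccl7 differed by 2.76 ± 0.35. Neither overlapped, nor did the alarmin Il33 at 2.52 ± 0.32. Ccl8 had the largest difference, 3.90 ± 0.64, with overlap, while Ccl19, a lymphoid chemokine, was at 0.16 ± 0.30. Of 16 listed, 13 passed the filter and 9 were at least 1 unit higher in either ranking, with medians of 1.64 and 1.51.

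Genes of antigen presentation were higher on the Col1a1-high side. Cd74, the invariant chain of MHC class II, was at 15.4, 128 and 206 TPM in the Col1a1-high and 1.02, 5.66 and 10.2 TPM in the Col1a1-low libraries, a difference of 4.26 ± 0.44. The class II chains H2-Ab1 and H2-Aa, whose promoter window is printed above, were 3.94 ± 0.43 and 3.93 ± 0.43 higher, and the 3 genes did not overlap. B2m and H2-K1, of class I molecules that most cells carry, had medians of 609 and 367 TPM against 40.7 and 17.1 TPM. They were 3.55 ± 0.52 and 3.45 ± 0.56 higher with overlap. Of 10 listed, 9 passed the filter and 9 were at least 1 unit higher in either ranking, with medians of 3.45 and 2.41, and 3.42 over those listed.

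Interferon-induced genes were higher with a wide spread. Bst2, an antiviral membrane protein, was at 3.35, 75.1 and 255 TPM in the Col1a1-high and 0.49, 3.36 and 8.4 TPM in the Col1a1-low libraries, 3.42 ± 0.62 higher with overlap. Oas1a, the transcription factor Irf7 and Mx1 were 2.92 ± 0.54, 2.63 ± 0.47 and 1.44 ± 0.35 higher. Of 11 genes, 11 were at least 1 unit higher and 0 were free of overlap. In the ranking of 31 the count was 7, and the median went from 2.32 to 1.19.

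Keratins had the largest single differences, and these were smaller in the ranking of 31. That ranking leaves out the 4 Chga-low libraries and also brings middle libraries to the high side. Krt8 was at 0.95, 73.8 and 630.5 TPM in the Col1a1-high, 0.17, 3.99 and 233 TPM in the middle and 0.14, 0.52 and 11 TPM in the Col1a1-low libraries. The difference was 5.15 ± 0.94, and 2.89 in the ranking of 31. Its partner Krt18 differed by 4.99 ± 0.90 and 2.71. The sides overlapped for both, and libraries W1462 and W1512 of the Col1a1-high side had only 0.95 and 1.63 TPM of Krt8.

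E-cadherin (Cdh1) and Epcam, adhesion molecules of epithelium, were 3.61 ± 0.73 and 2.85 ± 0.65 higher, and 1.71 and 0.90 in the ranking of 31. Tgm4, a secretory gene of the prostate, was at 1.35 to 2469 against 0.77 to 6.58 TPM. Hoxb13, a homeobox gene of the prostate, was at -2.23 ± 0.89. Of 16 listed luminal genes, 15 passed the filter, 9 were at least 1 unit higher and 2 lower, with medians of 1.24 and 1.29. With only the 4 Chga-low libraries left out of the first ranking, the median was 1.69. Of 7 basal genes 3 passed, led by Krt17 at 2.29 ± 0.66, and the median over those listed was 0.66.

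Neuroendocrine genes depended on the 4 libraries. Chga was at 0.15, 58.5 and 479 TPM in the Col1a1-high and 23.8, 47.4 and 291 TPM in the Col1a1-low libraries, with overlap. Its mean difference was -1.11 ± 0.98, and 0.55 in the ranking of 31. Snap25, of synaptic vesicle release, and Ncam1 differed by -2.13 ± 0.88 and -1.53 ± 0.51, and by -0.21 and -0.26 in the ranking of 31. Of 15 genes, 8 were at least 1 unit lower and 2 higher, beside 4.74% and 13.4% of all genes, with a median of -1.11. In the ranking of 31 the counts were 1 and 0, beside 0.643% and 5.49% of all genes, and the median was 0.0024. The factor Sox2 was at 134 to 209.7 TPM in the 4 libraries and at most 42.5 TPM in the 31, and Foxa2 at 33.7 to 54 TPM and at most 62.9 TPM.

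**Figure D3:**
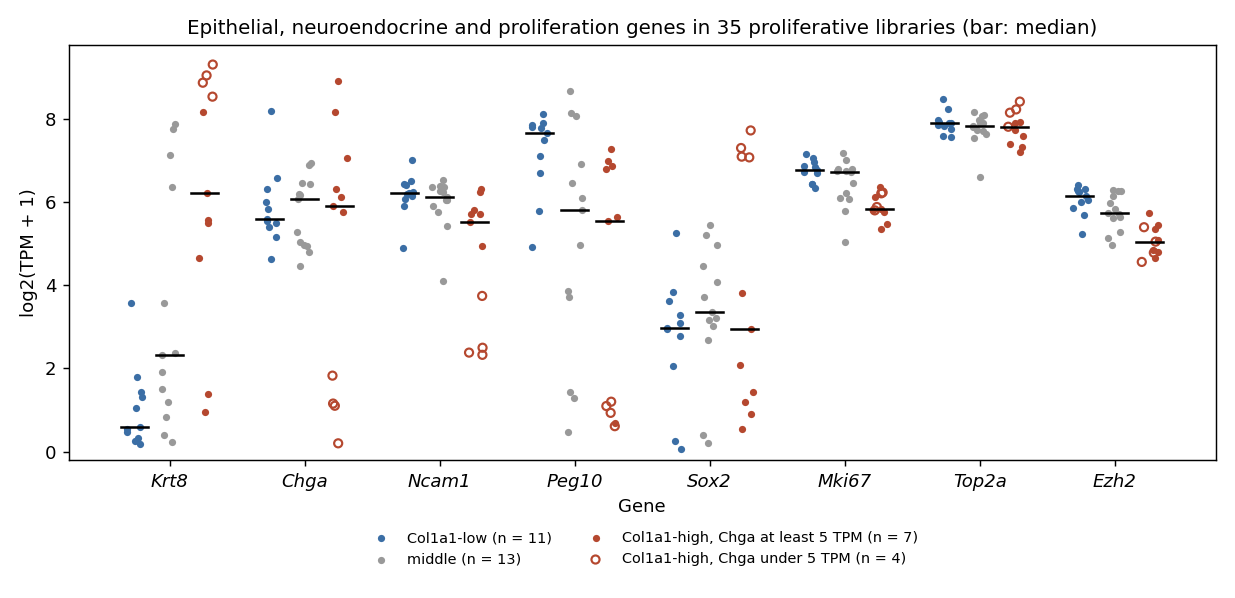
Levels of 8 epithelial, neuroendocrine and proliferation genes in log2(TPM + 1) in the Col1a1-low, middle and Col1a1-high libraries, with 1 point a library and a bar at each median. The 4 open points, under 5 TPM of Chga, lie apart from the other 31 libraries for Chga, Ncam1, Krt8 and Sox2.

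The largest negative differences included several genes of neurons. Peg10, an imprinted gene, was at 0.53, 45.5 and 153 TPM in the Col1a1-high and 29.1, 202 and 277 TPM in the Col1a1-low libraries, a difference of -3.23 ± 0.95, and -1.80 in the ranking of 31. The serotonin receptor Htr3a, the developmental factor Pax9 and the glutamate receptor Grik2 differed by -2.64 ± 0.96, -2.49 ± 0.90 and -2.40 ± 0.61. The rest of the 15 were Lrrtm4, Zfhx4, Nova1, Mapt, Csrnp3, Hoxb13, Lsamp, Akap6, Scn3a, Ttc6 and Gria2. All 15 overlapped between the sides, and in the ranking of 31 their differences ran from -1.80 to -0.30.

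The 15 largest positive differences were those of Krt8, Krt18, Col3a1, Dcn, Col1a1, Hp, Krt19, S100a6, Ly6a, Col1a2, Ifi27l2a, Cd74, Smim22, Plac8 and Serpinh1. They combine keratin, collagen and immune genes, and in the ranking of 31 they ran from 2.23 for S100a6 to 4.20 for Col3a1. Hp (haptoglobin), a secreted hemoglobin binder, was at 2.38, 23.6 and 333 TPM in the Col1a1-high and 0, 0.36 and 5.52 TPM in the Col1a1-low libraries. S100a6, a calcium-binding protein, was at 2095 to 6285 TPM in the 4 Chga-low libraries and 28.1 to 143 TPM in the other 7 of the Col1a1-high side.

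Proliferation genes did not separate the sides as a list. Of 20 tested, 0 were at least 1 unit higher and 0 lower, but only 6 differences were positive. The median was -0.09, beside 0.18 over all genes, and -0.28 after median-of-ratios scaling, beside 0.02. Mki67 itself was at 39.7 to 81.3 TPM in the Col1a1-high and 80.2 to 141 TPM in the Col1a1-low libraries, a difference of -0.86 ± 0.12 in a gene that the rule used. Topoisomerase Top2a was at 146 to 339.8 and 189 to 357 TPM, a difference of -0.12 ± 0.14. The methyltransferase Ezh2 and the kinetochore gene Cenpf were at -0.98 ± 0.15 and -0.92 ± 0.16, and cyclin B2 (Ccnb2) at 0.44 ± 0.26. The summed list was 863 to 1659 TPM in the Col1a1-high and 1116 to 1848 TPM in the Col1a1-low libraries, against a median of 135 TPM in the 80.

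Other tissue that a piece of prostate can carry was uneven. The adipocyte genes Cfd and Adipoq differed by 3.35 ± 0.91 and 1.81 ± 0.57. Of 7 adipocyte genes past the filter 5 were at least 1 unit higher, beside 13.4% of all genes. The adipocyte list summed to 13.6 to 502 TPM in the Col1a1-high and 9.66 to 162 TPM in the Col1a1-low libraries, and 2 Col1a1-high libraries exceeded the whole Col1a1-low side. Its median was 1.52, and 1.37 in the ranking of 31. Seminal vesicle, skeletal muscle, Schwann cell and blood lists had 0, 0, 0 and 0 genes at least 1 unit higher, with medians of 0.76, 0.30, 0.15 and 0.81. The Schwann cell value is that of Mbp, its 1 gene past the filter, and turned to -0.01 after median-of-ratios scaling, and the blood median was -0.43 in the ranking of 31. The part of these tissues in the differences was not tested.

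Hypoxia genes had 4 of 11 at least 1 unit higher, beside 13.4% of all genes, led by the glucose transporter Slc2a1 at 1.69 ± 0.55. In the ranking of 31 the count was 0, beside 5.49% of all genes, and the median went from 0.79 to -0.12. Of 8 immediate early genes 2 were at least 1 unit higher in the first ranking, beside 13.4% of all genes. These were Junb at 2.07 ± 0.38 and Atf3 at 1.67 ± 0.32, and the medians of the 2 rankings were 0.83 and 0.32.

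Of 25 candidate genes named by the study, 14 passed the filter and 3 were at least 1 unit higher, beside 13.4% of all genes. These were Tfpi, an inhibitor of coagulation, at 1.58 ± 0.32, the sodium-proton exchanger Slc9a2 at 1.52 ± 0.25 and the chaperone cofactor Dnajc10 at 1.02 ± 0.24. The list median was 0.12, and -0.03 after median-of-ratios scaling. The study chose its candidates on these samples, so the list is not independent evidence of a direction.

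The rule set the 80 libraries under 30 TPM of Mki67 aside by that gene alone and did not use their Col1a1, which allowed tests. Tests of Mki67 itself are not free of the rule, which held it under 30 TPM in these libraries. Col1a1 was at 1.96 to 645.3 TPM there, with a median of 11.6. The slope of each gene's log2(TPM + 1) on that of Col1a1 was tested with limma over 13086 autosomal genes, with Benjamini-Hochberg adjustment over all of them. The last block of samples, described in the opening, also holds W5000, W5001, W5002, W5003, W5004 and W5005 of the 80. The slopes and the correlations below had no term for this block, and its part in them was not tested. At an adjusted p under 0.05, 6355 genes (48.6%) rose with Col1a1 and 456 (3.48%) fell. After median-of-ratios scaling 1979 (15.1%) rose and 3291 (25.1%) fell, so the counts below are given under both scalings where they differ.

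Collagen and matrix genes rose. Col3a1 and Col1a2 had slopes of 0.99 ± 0.05 and 0.95 ± 0.03 (SE, n = 80; limma adjusted p = 1.4e-32 and 2.8e-42). Lox rose by 0.82 ± 0.05 per log2 unit of Col1a1, Sparc by 0.73 ± 0.05 and Dcn by 0.48 ± 0.07. For the counts that follow here, 48.6% of all genes rose, and 15.1% after median-of-ratios scaling. Of 5 fibrillar collagens tested 5 rose under both scalings. Of 31 glycoproteins and proteoglycans 31 rose, and 30 after median-of-ratios scaling. Of 19 processing genes 16 rose, and 14 after that scaling with 2 that fell, where 25.1% of all genes fell.

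Fibroblast markers rose in 14 of 14 tested under both scalings, beside 48.6% of all genes, and 15.1% after median-of-ratios scaling. The same shares stand beside the macrophage and endothelial counts below. Pdgfra, which overlapped widely between the sides above, had a slope of 0.60 ± 0.05 (limma adjusted p = 7.2e-16), and whether the relation differs between the proliferative and the other libraries was not tested. Macrophage genes rose in 14 of 15 under both scalings, Csf1r by 0.44 ± 0.05 and Lyz2 by 0.57 ± 0.08. Mertk, a receptor for the uptake of dying cells, fell by 0.22 ± 0.06 per log2 unit (limma adjusted p = 0.0019). Endothelial genes rose in 14 of 15, and 13 after median-of-ratios scaling, with Pecam1 at 0.43 ± 0.07.

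Among smooth muscle genes, Acta2 had a slope of 0.20 ± 0.10 (limma adjusted p = 0.082) that was 0.36 and past the threshold without the 2 libraries farthest from the median Col1a1, and 0.29 and past it without the highest alone. Tagln had a slope of 0.09 ± 0.10 (limma adjusted p = 0.45), and -0.07 after median-of-ratios scaling. Of 18 smooth muscle genes 5 rose, beside 48.6% of all genes, and 0 after median-of-ratios scaling, beside 15.1%. Without those 2 libraries 12 rose, beside 6066 of all 13086 genes.

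Of the class II genes, Cd74 rose by 0.39 ± 0.08 and H2-Aa by 0.37 ± 0.08 per log2 unit (limma adjusted p = 4.6e-05 and 9.1e-05), and their slopes were 0.20 and 0.18 after median-of-ratios scaling. B2m had a slope of 0.15 ± 0.10 (limma adjusted p = 0.22), and -0.05 after median-of-ratios scaling. Of 9 antigen presentation genes 5 rose, near the 48.6% of all genes, and 3 did after that scaling, against 15.1%. Interferon genes rose in 2 of 11, beside 48.6% of all genes. After median-of-ratios scaling 0 of them rose and 1 fell, beside 15.1% and 25.1% of all genes.

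Of epithelial genes, Krt8 had a slope of 0.04 ± 0.06 (limma adjusted p = 0.55), and -0.12 after median-of-ratios scaling. Krt18 fell by 0.13 ± 0.05 (limma adjusted p = 0.034), a call that was lost at a slope of -0.06 without the library at 645.3 TPM of Col1a1. Tgm4 fell by 1.39 ± 0.27 per log2 unit (limma adjusted p = 1.3e-05). Of 15 luminal genes 6 fell and 1 rose, beside 3.48% and 48.6% of all genes. After median-of-ratios scaling 11 fell, beside 25.1% of all genes. Of 7 basal genes 4 rose and 0 fell, near the 48.6% of all genes that rose. After that scaling 1 rose, near the 15.1% of all genes.

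Of 15 study candidates 4 rose and 3 fell, beside 48.6% and 3.48% of all genes. After median-of-ratios scaling 1 rose and 5 fell, beside 15.1% and 25.1%. Dnajc10 and Slc9a2 fell by 0.33 ± 0.09 and 0.20 ± 0.07 (limma adjusted p = 0.0022 and 0.015). Mki67, which the rule used, rose by 0.24 ± 0.10 (limma adjusted p = 0.048), with a slope of 0.04 after median-of-ratios scaling. Of 20 proliferation genes, which include Mki67, 10 rose, near the 48.6% of all genes. After that scaling 1 rose, beside 15.1% of all genes.

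Col1a1 was also correlated with 8 markers over the 80 libraries, with 100000 permutations, two-sided, adjusted over the 8. Col3a1 had r = 0.93 and rho = 0.90, Adgre1, a macrophage marker, r = 0.66 and rho = 0.64, Ptprc r = 0.63 and rho = 0.58, and Pecam1 r = 0.57 and rho = 0.57. For these 4 each permutation p was 1e-05, the smallest that 100000 permutations can give, and each adjusted p was 2e-05. Mki67, which the rule held under 30 TPM here, had r = 0.25 (permutation p = 0.0261, adjusted 0.0418) and rho = 0.33 (p = 0.00317, adjusted 0.00423). Acta2 had r = 0.22 (permutation p = 0.0494, adjusted 0.0658) and rho = 0.46 (p = 2e-05, adjusted 3.2e-05). Chga had r = 0.15 (permutation p = 0.142, adjusted 0.162) and rho = 0.30 (p = 0.007, adjusted 0.008). Krt8 had r = 0.08 (permutation p = 0.488) and rho = 0.23 (p = 0.043), and its adjusted p-values were the same.

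Without the 2 libraries farthest from the median Col1a1, at 645.3 and 130.4 TPM, r was 0.89 for Col3a1, 0.55 for Adgre1, 0.51 for Ptprc, 0.53 for Pecam1, 0.26 for Mki67, 0.20 for Chga and 0.21 for Krt8. Acta2 then passed the threshold with r = 0.29 (permutation p = 0.0108, adjusted 0.0173). The correlation with Mki67 was 0.041 after median-of-ratios scaling and 0.16 in the 63 libraries under 10 TPM of Mki67, past the threshold in neither.

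**Figure D4:**
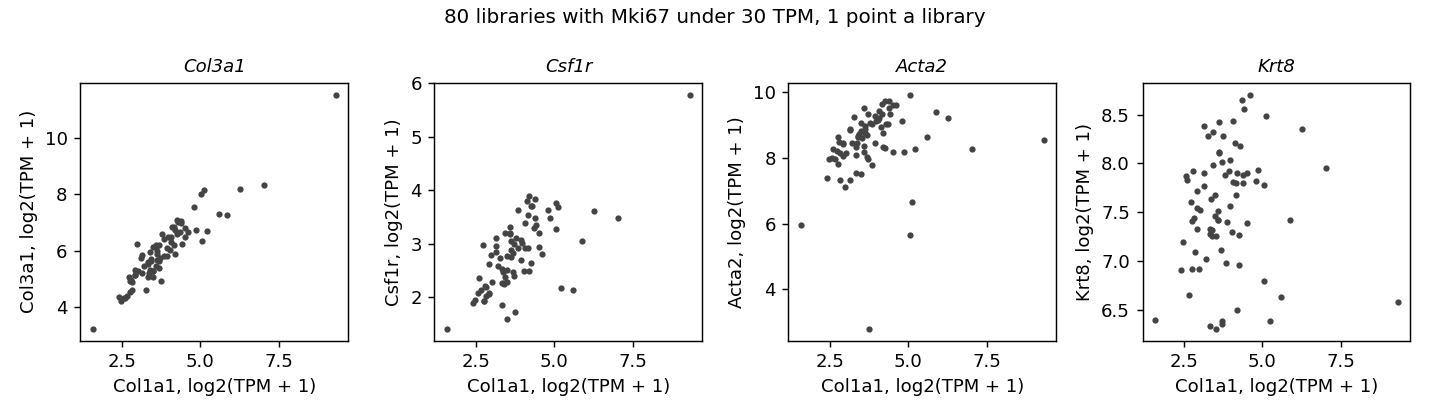
Levels of Col3a1, Csf1r, Acta2 and Krt8 against Col1a1, both axes in log2(TPM + 1), in the 80 libraries under 30 TPM of Mki67, with 1 point a library. Col3a1 follows Col1a1 closely (r = 0.93 and rho = 0.90), while Acta2 (r = 0.22 and rho = 0.46) and Krt8 (r = 0.08 and rho = 0.23) scatter more. The point farthest right is the library at 645.3 TPM of Col1a1.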

How the data were processed

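Per the labels and methods, the authors removed rRNA, aligned trimmed reads with Bowtie2 2.2.5 to transcripts built from both parental genomes (GRCm38) and estimated gene levels with RSEM 1.2.20, after base calling with CASAVA 1.8.2. They deposited TPM for 45699 genes. The labels give a minimum number of read pairs but not the depth of each library, and no counts were used here, so no counting interval is given, and a level listed at 0 may be a failed estimate. The 45136 genes matched to GENCODE M21 were named from it. The 40935 autosomal ones were kept, as the rule names autosomal genes. The members and the gene lists were chosen with earlier results of these data known.

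Each side was rounded down to 11 libraries. Differences used genes averaging at least 1 TPM over the 35 and a pseudocount of 1. Fold changes on this scale understate those of low genes. Slopes were fitted with limma 3.58.1 (trend, robust) in R 4.3.3 and correlations permuted in Python 3.11.15 with numpy 2.4.6, pandas 2.3.3 and scipy 1.17.1, and figures drawn with matplotlib 3.10.9. The labels do not say that libraries are separate mice, so p-values measure the spread between libraries. Named genes were the 4 largest and 2 smallest differences of each list, its defining members and the 15 largest differences each way. Any gene named beyond these was chosen after its values were seen. Alternatives covered pseudocount, scaling, the filter, the Mki67 limit, the number of libraries a side, the ranking gene, medians, Mki67 as a covariate and libraries left out. Scripts were tested on simulated data.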

Additional observations from a re-analysis of the deposited data

How the results depend on the processing

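No paired analysis was possible because the labels give 1 group whose libraries share no replicate numbers. From 708, genes at least 1 unit lower became 1694 with a pseudocount of 0.1, 1869 when TPM was rescaled leaving out the 20 genes of largest share, 314 with Mki67 of at least 20 TPM, 1238 with the outer 25% and 259 with the outer 50% of libraries on each side, 96 in the ranking of 31 and 305 without the 4 Chga-low libraries. From 1995, genes at least 1 unit higher became 819 and 1142 in the last 2 settings. Of both, 73.8% were higher, but 60.6% with a pseudocount of 0.1, 64.4% after median-of-ratios scaling, 50.4% after rescaling and 89.5% in the ranking of 31. From 16, genes lower without overlap became 51 after median-of-ratios scaling, 35 after rescaling, 2 with Mki67 of at least 50 TPM, 535 with the outer 25%, and 0 with Mki67 of at least 20 TPM, the outer 50%, 12 libraries a side, the ranking of 31 or ranking by Col3a1 or Dcn. From 360, genes higher without overlap became 59 with Mki67 of at least 20 TPM, 1041 with the outer 25% and 7 with the outer 50%. Leaving out 1 library at a time gave 1820 to 2240 higher, 586 to 907 lower, 360 to 507 higher without overlap and 16 to 83 lower without overlap, of which 83 was without W1065 and 29 without W1052. Of 434 alternative list medians, 403 moved by less than the spread between libraries, 30 by more, and the neuroendocrine list turned to 0.0024 in the ranking of 31.

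In the 80 other libraries, the 6355 rising genes became 1979 after median-of-ratios scaling, 2771 after rescaling, 11061 without the filter and 4035 with Mki67 as a covariate. The 456 falling genes became 3291, 2061 after rescaling and 255 without the 2 farthest libraries. Slopes turned to -0.12 after median-of-ratios scaling, -0.089 after rescaling, -0.068 with the covariate and -0.031 under 10 TPM of Mki67 for Krt8, to -0.069 and -0.011 under the 2 scalings for Tagln and to -0.050 after median-of-ratios scaling for B2m. The correlation with Krt8 turned to -0.28 after median-of-ratios scaling, where it passed the threshold (permutation p = 0.0143, adjusted 0.0229), and -0.063 under 10 TPM of Mki67. That with Mki67 lost its call at 0.041 and 0.16. Acta2 gained one at 0.27 under 10 TPM of Mki67 and 0.29 without the 2 farthest libraries, and Chga at 0.35 under 10 TPM of Mki67. Other causes of these changes were not tested.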
